A study of Mus musculus with 23 samples.

Results

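The comparison described here is that of Sarm1-KO with wild-type bone in diabetic female mice, made between 6 libraries labelled KO T1D and 6 labelled WT T1D, which were taken as their column labels name them. These are 12 of the 23 libraries of the series. RNA was read from femur and tibia of C57BL6/N females at 11 weeks of age, after removal of the epiphyses and centrifugation of the marrow out of the shaft. Both diabetic groups had been given streptozotocin, a toxin of insulin-producing beta cells, by intraperitoneal injection at 100 mg/kg after overnight fasts and were studied 3 weeks after type 1 diabetes (T1D) began at 8 weeks of age. They differ in genotype: WT T1D mice carried intact Sarm1, and KO T1D mice were global Sarm1 knockouts. The nondiabetic groups, 5 WT Control and 6 KO Control mice of the same age and sex given saline, serve as the reference for the same genotype difference without diabetes. The model has limits: the knockout is global and not restricted to a cell type, and WT mice came partly from heterozygous breeding pairs and partly from a vendor, without labels that say which. KO T1D mice carry numbers from A3674 to A3683, and WT T1D mice A1758, A1764, A1787, A3905, A3906 and A3909. The diabetic genotypes share no number series, so genotype and series cannot be told apart, and what the numbers stand for is not given. Of 67228 gene entries, 14364 had at least 10 counts in at least 5 libraries and were tested.

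SARM1 is an enzyme that consumes NAD and drives the self-destruction of injured axons. Bone is built by osteoblasts, which secrete collagen I and mineralize it under the control of transcription factors such as RUNX2 and SP7, and is removed by osteoclasts. Osteocytes, osteoblasts buried in the matrix, restrain formation by secreting the Wnt antagonists sclerostin and DKK1. Insulin deficiency is known to lower bone formation and to shift cells toward the use of fatty acids.

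The targeted gene was checked first. Sarm1 was barely detected, with 6 to 21 counts per library in WT T1D and 15 to 28 in KO T1D. As depth-scaled counts (CPM, with library sizes adjusted by the trimmed mean of M values), its level was 0.340, 0.671 and 1.21 at the lowest, median and highest library of WT T1D and 0.811, 1.24 and 1.46 in KO T1D. The libraries labelled KO T1D thus held more, not less, Sarm1 RNA than those labelled WT T1D, with overlapping groups (difference in mean log2 [CPM + 0.5] 0.53, exact permutation test over 6 against 6 libraries, two-sided p = 0.0152, where 0.00216 is the smallest p possible). In nondiabetic bone the difference had the other sign (edgeR log2 -0.55, unadjusted p = 0.158), with 0.845 to 1.76 CPM in WT Control and 0.268 to 1.57 CPM in KO Control, and on median-centered log2 (TPM + 1) it was -0.011 in diabetic bone. From quantitative PCR, a different measure, the paper reports that Sarm1 was low in bone and significantly lower in knockout than in WT bone. It reports a significant reduction in cultured stromal cells, pre-osteoblasts, macrophages and pre-osteoclasts as well. Counts are per gene, and the exons removed by the allele are not given in the sources used here, so these Sarm1 counts do not check the deletion. Genotype is therefore that of the library label throughout, and every direction given for KO T1D is that of the libraries so labelled.

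Total counts ran from 17681931 to 20135592 over the 12 diabetic libraries. The WT T1D libraries of mice A3905 and A3906 stood apart from the rest before any comparison: on the component that held 26.1% of the variance they scored -79.1 and -82.6, against -6.25 to 21.7 in the other 21 libraries. Osteoblast and B-cell RNA was low and osteoclast RNA high in this pair. Summed matrix and mineralization genes read 11163 and 9225 CPM in the pair against 76755 to 103942 CPM in the other 4 WT T1D libraries, while summed osteoclast genes read 6671 and 7190 CPM against 3463 to 4182 CPM. Values are therefore given with and without this pair, an alternative added after the data were seen. Without it, WT T1D holds A1758, A1764, A1787 and A3909. Bone RNA was present in all 12, with Col1a1, the main chain of collagen I, between 2215 and 58304 CPM and Sost, an osteocyte gene, between 46.2 and 222 CPM. Blood-cell RNA was abundant in the marrow-depleted bone: hemoglobin genes took 12.3% to 21.4% of the counts in WT T1D and 10.5% to 14% in KO T1D. In bulk bone, fewer cells of a type and less RNA per cell cannot be told apart.

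Across all tested genes, 9 were higher and 4 lower in KO T1D than in WT T1D (edgeR quasi-likelihood test over the 4 groups, Benjamini-Hochberg adjusted p under 0.05), which is 0.0905% of the 14364. At an unadjusted p under 0.05, 8.44% of genes were higher and 8.65% lower, and without A3905 and A3906 these shares were 3.13% and 3.33%. The split of calls differed between settings, from 9 and 4 to 9 and 1 on library totals, 3 and 2 with relative log expression factors, 1134 and 32 with limma on log2 (TPM + 1) and 28 and 32 after centering each library of those values on its median. The median of all genes was 0.01 in the main fit and 0.17 on log2 (TPM + 1), and most of the TPM calls lay on the side of this shift. The TPM settings change the test as well as the scale. Complete separation of the 6 KO T1D from the 6 WT T1D libraries was found for 65 genes upward (0.453%) and 59 downward (0.411%).

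Of the 13 called genes, 6 lie on chromosome 11 within 10 Mb (megabases) of Sarm1. This window held 328 tested genes, of which 1.83% were called, against 7 of 14036 (0.0499%) elsewhere. Without A3905 and A3906, 4 genes of the window and 0 genes elsewhere were called. Sarm1 itself occupies chr11:78470273-78497816 (GRCm38.p6). The genes are Ccdc92b, Xaf1, Vtn, Tlcd2, Alox15 and Spns3. They were not all changed in the same direction: Ccdc92b was lower and the other 5 were higher.

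Vtn encodes vitronectin, an adhesive plasma and matrix protein, and lies at chr11:78499120-78502325, 1304 bases from Sarm1 and on the opposite strand. Its lowest, median and highest levels were 0.347, 1.51 and 3.43 CPM in WT T1D and 12.1, 16.1 and 20.6 CPM in KO T1D. No library of one group reached the other, and the fitted difference was 10.6-fold (log2 3.40 ± 0.30 SE, n = 6 per group, edgeR adjusted p = 3.69e-07). Xaf1, an interferon-inducible partner of the apoptosis inhibitor XIAP at chr11:72301461-72313733, read 3.00, 8.44 and 13.2 CPM in WT T1D. In KO T1D it read 69.8, 85.8 and 108 CPM, an 11.0-fold difference (log2 3.46 ± 0.22, edgeR adjusted p = 7.29e-10). Ccdc92b, a coiled-coil gene at chr11:74619594-74641516, ran the other way. Its levels of 29.4, 31.4 and 34.3 CPM in WT T1D stood against 2.02, 2.41 and 2.70 CPM in KO T1D, 13.4-fold lower (log2 -3.75 ± 0.12, edgeR adjusted p = 1.23e-16). These 3 genes passed under all 25 alternatives tried, each single-library omission included.

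Tlcd2, a membrane gene of the TLC domain family at chr11:75468024-75470899, was higher by 2.04-fold (log2 1.03 ± 0.19, edgeR adjusted p = 0.0489). Its levels were 1.84, 3.36 and 4.05 CPM in WT T1D and 4.85, 6.83 and 8.39 CPM in KO T1D, again without overlap. Alox15, the 12/15-lipoxygenase of eosinophils and macrophages at chr11:70344147-70390538, read 41.6, 50.4 and 66.6 CPM in WT T1D and 77.2, 117 and 194 CPM in KO T1D (log2 1.24 ± 0.24, edgeR adjusted p = 0.0489). Spns3, a sphingolipid-transporter-like gene at chr11:72498153-72550509, read 8.91, 14 and 18.6 CPM against 20.7, 21.3 and 32.9 CPM (log2 0.72 ± 0.14, edgeR adjusted p = 0.0489). Without A3905 and A3906 the log2 differences of Tlcd2, Alox15 and Spns3 were 1.15, 1.21 and 0.55, with edgeR adjusted p of 0.0840, 0.222 and 0.222.

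The same genotype contrast in nondiabetic bone used other mice and called 4 genes (0.0278%), which were Ccdc92b, Xaf1, Vtn and Tlcd2. Their log2 differences were -3.40, 3.22, 3.35 and 1.11, with edgeR adjusted p of 2.01e-15, 9.52e-09, 1.79e-06 and 0.0466. Xaf1 ranged from 9.49 to 15.3 CPM in WT Control and from 90.5 to 122 CPM in KO Control, and Vtn from 1.04 to 2.26 CPM and from 12.2 to 21 CPM. Levels of Xaf1 and Vtn thus lay near those of diabetic libraries of the same genotype. Alox15 and Spns3 differed by log2 0.74 and 0.45 in nondiabetic bone (unadjusted p = 0.00727 and 0.00642 from edgeR) and did not pass there.

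**Figure D1:**
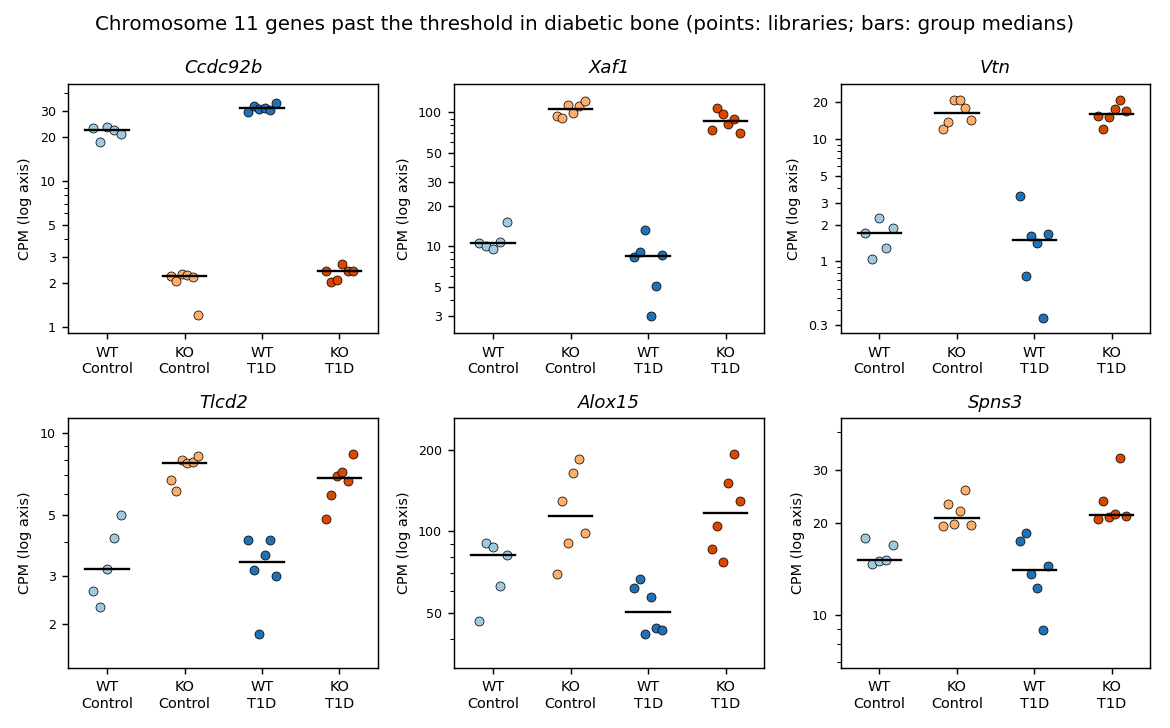
Levels in CPM (log axis) of the 6 called chromosome 11 genes in each library of the 4 groups; points are libraries and bars are group medians. Ccdc92b, Xaf1, Vtn, Tlcd2 and Spns3 separate by genotype in diabetic and nondiabetic mice (Spns3 from 14.6 to 18 CPM in WT Control and from 19.6 to 25.8 CPM in KO Control), whereas Alox15 overlaps between the nondiabetic groups, from 46.6 to 90.6 CPM in WT Control and from 69.3 to 185 CPM in KO Control.

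**Figure D2:**
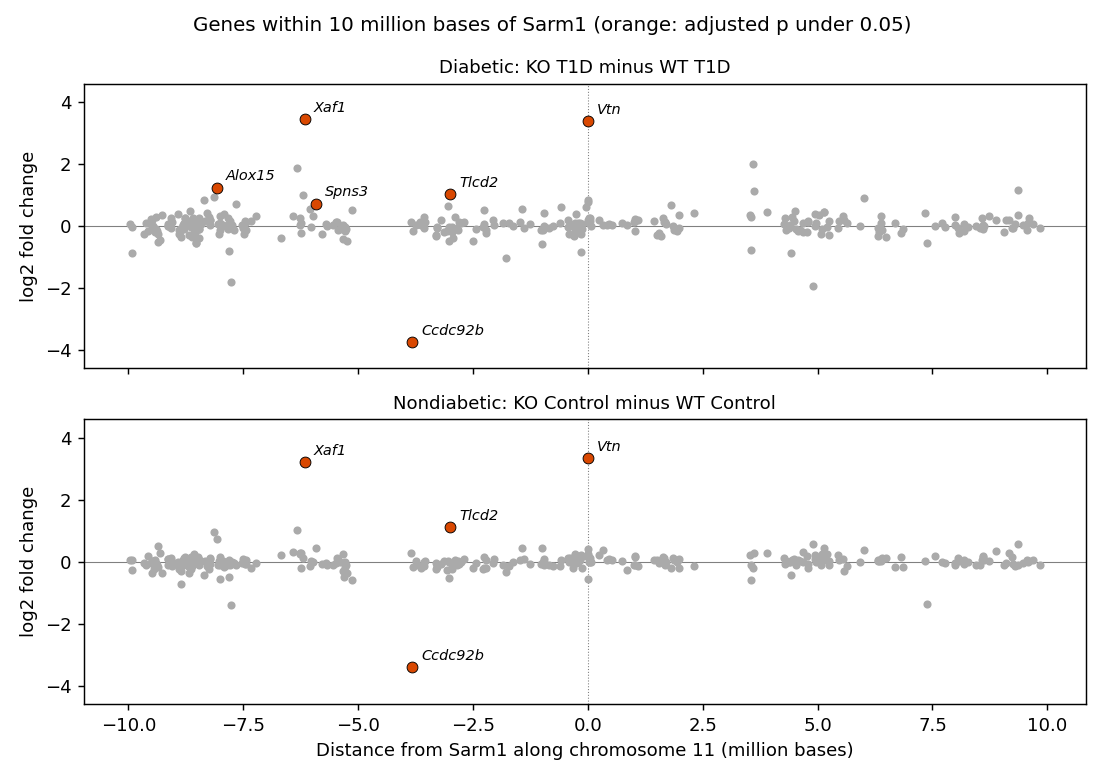
Log2 difference between genotypes of the 328 tested genes within 10 Mb of Sarm1, against distance from Sarm1 in Mb, in diabetic (top) and nondiabetic (bottom) mice; orange points passed an adjusted p of 0.05. The called genes lie from 8.08 Mb before Sarm1 to just beside it, among many neighbors near 0.

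RefSeq start-site sequences (GRCm38.p6, 250 bases before to 50 after the start) were at hand for Sarm1 and for 3 of the 6 called neighbors, and are shown because Vtn and Sarm1 start close to each other on opposite strands and because 1 neighbor, Xaf1, is an interferon-inducible gene. They are from chr11:78497705-78498004 (minus strand) for Sarm1, chr11:78498870-78499169 (plus) for Vtn, chr11:72301379-72301678 (plus) for Xaf1 and chr11:75467800-75468099 (plus) for Tlcd2. Capitals mark matches, on either strand, to the core of the interferon-response element, GAAA and GAAA separated by any pair of bases (held by 3.44% of 32851 mouse promoter windows of the same length), to TATAAA (13.6%) and to the GC box GGGCGG (35.7%).
Sarm1: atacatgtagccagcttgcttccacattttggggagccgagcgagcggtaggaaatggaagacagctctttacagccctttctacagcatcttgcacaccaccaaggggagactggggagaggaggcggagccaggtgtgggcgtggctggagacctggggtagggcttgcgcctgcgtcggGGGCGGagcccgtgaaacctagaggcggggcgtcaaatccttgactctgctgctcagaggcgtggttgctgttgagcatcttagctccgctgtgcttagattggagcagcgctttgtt
Vtn: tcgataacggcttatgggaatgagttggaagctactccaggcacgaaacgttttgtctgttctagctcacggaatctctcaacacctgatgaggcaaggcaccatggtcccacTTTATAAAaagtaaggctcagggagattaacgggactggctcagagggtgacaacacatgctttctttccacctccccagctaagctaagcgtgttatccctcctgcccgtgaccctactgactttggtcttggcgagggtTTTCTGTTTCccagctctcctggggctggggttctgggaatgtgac
Xaf1: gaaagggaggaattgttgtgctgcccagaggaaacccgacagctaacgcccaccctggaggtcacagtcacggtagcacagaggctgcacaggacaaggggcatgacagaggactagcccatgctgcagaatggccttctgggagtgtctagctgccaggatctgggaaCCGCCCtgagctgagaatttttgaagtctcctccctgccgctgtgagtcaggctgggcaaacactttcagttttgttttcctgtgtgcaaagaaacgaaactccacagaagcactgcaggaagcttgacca
Tlcd2: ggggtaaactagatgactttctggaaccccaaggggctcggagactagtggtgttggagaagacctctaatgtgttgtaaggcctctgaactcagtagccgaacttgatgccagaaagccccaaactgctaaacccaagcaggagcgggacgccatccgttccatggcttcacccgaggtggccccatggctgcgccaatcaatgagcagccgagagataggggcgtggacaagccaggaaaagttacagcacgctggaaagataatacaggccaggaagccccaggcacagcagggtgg
The Vtn window holds TATAAA on both strands, at overlapping positions, and the interferon-response core on the minus strand just past the start. The Sarm1 and Xaf1 windows hold a GC box each, and no match to any of these letters stood in the Tlcd2 window. A match is a description of the reference letters only, and the sequence carried by these mice was not read here.

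The other 7 called genes lie outside this window. Ear1 on chromosome 14, an eosinophil ribonuclease, read 140, 185 and 280 CPM in WT T1D and 297, 471 and 634 CPM in KO T1D, without overlap (log2 1.27 ± 0.25, edgeR adjusted p = 0.0489). P2ry14, the receptor for UDP-glucose, read 4.59, 5.66 and 7.0 CPM against 7.56, 10.3 and 12.4 CPM (log2 0.81 ± 0.15, edgeR adjusted p = 0.0454). Tmem184c and Spata13 were higher by log2 0.42 ± 0.08 and 0.38 ± 0.08. Spata13 overlapped in 1 library of KO T1D, at 77.4 CPM against a WT T1D maximum of 78.6 CPM.

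Lower in KO T1D were Cd36, Chek2 and Adam33. Cd36, the fatty acid translocase, read 87.5, 95.4 and 192 CPM in WT T1D and 53.2, 66.5 and 74.1 CPM in KO T1D, without overlap (log2 -0.86 ± 0.17, edgeR adjusted p = 0.0489). Its difference was -0.50 without A3905 and A3906 and 0.11 in nondiabetic bone. Chek2, a DNA-damage checkpoint kinase, read 21.3, 23.4 and 26.0 CPM against 16.9, 18.4 and 20.03 CPM (log2 -0.36 ± 0.07). Adam33, a metalloprotease of mesenchymal cells, overlapped in 1 library and read 5.39, 8.13 and 12 CPM against 2.46, 4.05 and 5.48 CPM (log2 -1.09 ± 0.22).

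These 7 calls, and those of Alox15, Spns3 and Tlcd2, were lost when single libraries were left out, while over all 25 alternatives the log2 differences ran from 1.15 to 1.45 for Ear1, from 1.05 to 1.40 for Alox15 and from 0.81 to 1.23 for Tlcd2. Only Ccdc92b, Xaf1 and Vtn of the 13 passed when WT T1D A3905, WT T1D A3906, or the KO T1D libraries A3674, A3675 or A3682 were left out, with 3 or 4 calls in all. Without KO T1D A3676 or A3683 there were 4 calls, P2ry14 or Alox15 being the added gene. Without WT T1D A3909 there were 95 calls, without A1758 54 and without A1787 45, and without WT T1D A1764 or KO T1D A3681 there were 15 and 16. All 13 kept their direction under the 25 alternatives.

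**Figure D3:**
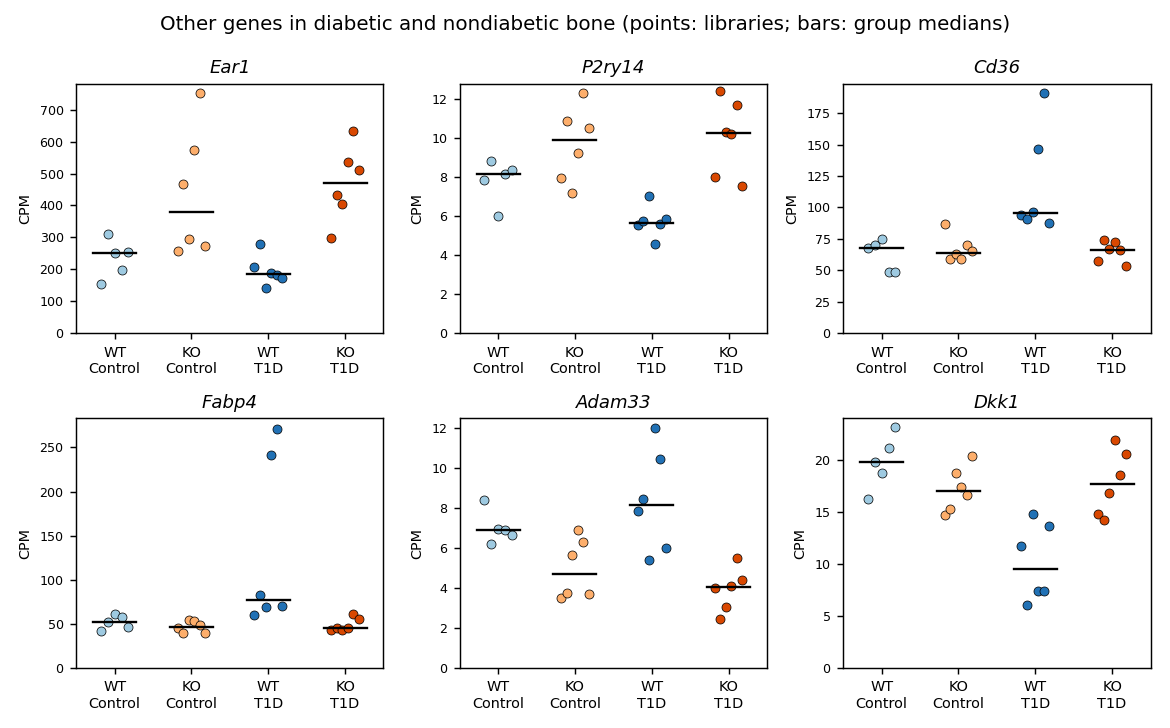
Levels in CPM (axis from 0) of Ear1, P2ry14, Cd36, Fabp4, Adam33 and Dkk1 in each library of the 4 groups; points are libraries and bars are medians. In WT T1D, the highest Cd36 and Fabp4 values, 192 and 271 CPM, belong to the pair of libraries that stood apart, and KO T1D lies near the nondiabetic levels of these genes. Fabp4 and Dkk1 did not pass the threshold.

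The lists that follow are read against the shares of all genes at an unadjusted p under 0.05 given above, since few members passed the adjusted threshold. Eosinophil genes were high in KO T1D. Of the 12 eosinophil and basophil genes, 8 were higher at an unadjusted p under 0.05 and none lower, with a median log2 difference of 0.81 against 0.01 for all genes. Ear6, another eosinophil ribonuclease, read 85.1, 104 and 171 CPM in WT T1D and 145, 291 and 449 CPM in KO T1D (log2 1.37, edgeR adjusted p = 0.0644). Epx, eosinophil peroxidase, read 205, 262 and 426 CPM against 402, 620 and 973 CPM (log2 1.17, edgeR adjusted p = 0.0644). Prg2, the granule major basic protein, read 617, 729 and 997 CPM against 1009, 1471 and 2192 CPM and did not overlap (log2 0.98, edgeR adjusted p = 0.0750). Siglecf, a receptor on eosinophils, differed by log2 0.60 and Il5ra, the interleukin-5 receptor, by 0.68.

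The basophil and mast-cell members of that list stayed near 0, at log2 0.22 for Mcpt8, 0.11 for Cpa3 and 0.01 for Prss34, as did the eotaxin receptor Ccr3 at 0.08. The summed list ran from 1421 to 2311 CPM in WT T1D and from 2252 to 4951 CPM in KO T1D. Its median was 0.79 without A3905 and A3906, when 7 members kept an unadjusted p under 0.05, and 0.57 in nondiabetic bone. Epx lies on chromosome 11, 9.37 Mb from Sarm1, and near-identical Ear copies share reads, so that the split of counts among Ear1, Ear2 and Ear6 is uncertain.

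Fuel-use genes were low in KO T1D. Of 19 tested genes of fasting and fatty acid oxidation, 15 were lower at an unadjusted p under 0.05 and none higher, and all 19 had a negative difference (median log2 -0.45). Cd36 was the called member. Pdk4, the kinase that shuts pyruvate out of oxidation, read 22.5, 43.0 and 51.8 CPM against 16, 23 and 37.4 CPM (log2 -0.76), and Angptl4, an inhibitor of lipoprotein lipase, read 48.1, 65.0 and 86.9 CPM against 23.4, 43.8 and 50.4 CPM (log2 -0.66). Without A3905 and A3906, 10 of the 19 were lower at this p and the median was -0.50. In nondiabetic bone the median was 0.02.

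Skeletal-muscle RNA varied widely between libraries. The 18 muscle genes summed to 3462 to 8243 CPM in WT T1D and to 333 to 6521 CPM in KO T1D, with Atp2a1, the calcium pump of fast fibers, between 534 and 1468 CPM and between 41.4 and 1277 CPM. All 18 had a negative fitted difference (median -1.09), and 2 of them, Actn3 and Myh1, were lower at an unadjusted p under 0.05, a share near that of all genes. Without A3905 and A3906, 2 of the 18 were lower at this p, where 3.33% of all genes were. Of the fuel genes, Ucp3 (log2 -1.58) and Fabp3 (-1.24) are also expressed by muscle. The part of muscle RNA in the lower fuel genes was not tested.

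Most genes of the adipocyte list were also lower. Of 14 tested genes 10 were lower and 1, Fasn, was higher at an unadjusted p under 0.05 (median log2 -0.81). Fabp4, the fatty acid carrier of adipocytes, which was next in line among the lower genes but did not pass, read 60.1, 76.4 and 271 CPM in WT T1D and 42.5, 45.2 and 60.9 CPM in KO T1D (log2 -1.45, edgeR adjusted p = 0.0644). Lpl, lipoprotein lipase, read 134, 182 and 246 CPM against 87.6, 116 and 156 CPM (log2 -0.68). Adipoq, adiponectin, differed by only -0.07, so the list does not show less RNA of adipocytes as a whole. Without A3905 and A3906, 3 members were lower at this p, the median was -0.54 and Fabp4 differed by -0.54.

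Osteoblast regulators were higher in KO T1D when all libraries were used. Of 21 tested transcription factors and receptors, 16 were higher at an unadjusted p under 0.05 and none lower, with a median of 0.42. None passed the adjusted threshold. Runx2, the master factor of the lineage, read 40.2, 65.3 and 91.9 CPM in WT T1D and 73.0, 88.4 and 97.2 CPM in KO T1D (log2 0.42 ± 0.15, edgeR adjusted p = 0.202). Fgfr2, a fibroblast growth factor receptor, read 46.1, 54.3 and 60.7 CPM against 58.0, 68.6 and 84.0 CPM (log2 0.38 ± 0.09, edgeR adjusted p = 0.0785). Pth1r, the parathyroid hormone receptor, differed by 0.64 ± 0.25 (edgeR adjusted p = 0.213). Without A3905 and A3906 only 2 of the 21, Fgfr2 among them, kept an unadjusted p under 0.05, and the median was 0.22. In nondiabetic bone it was -0.13.

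Bone matrix genes depended on that pair more strongly. Col1a1 read 2215, 33614 and 43914 CPM in WT T1D, where the lowest values, 3018 and 2215 CPM, were A3905 and A3906. In KO T1D it read 38833, 42855 and 58304 CPM (log2 0.84 ± 0.47, edgeR adjusted p = 0.361). Of 22 matrix and mineralization genes, 4 were higher and 4 lower at an unadjusted p under 0.05. The lower were Mgp, an inhibitor of calcification (log2 -0.998), Spp1, osteopontin (-0.91), Ogn and Ank. The list median was 0.60, and 0.11 without the pair, when 1 gene was higher and 2 lower at that p and Spp1 differed by 0.03. Collagen-modifying enzymes and chaperones had a median of 0.49, with 7 of 23 higher, and 0.12 with 1 higher without the pair. P4hb, a subunit of prolyl hydroxylase, did not overlap, at 329 to 439 CPM in WT T1D and 440 to 540 CPM in KO T1D.

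The COPII coat carries procollagen out of the endoplasmic reticulum. The list of 17 tested genes also holds Creb3l1 and Creb3l2, which are transcription factors of secretory genes and not coat subunits (log2 0.73 and 0.33). Of the 17, 12 with both of these included were higher at an unadjusted p under 0.05, with a median of 0.29, and 2 without the pair, with a median of 0.15. Sec13, a coat subunit, read 43.7, 49.8 and 56.6 CPM in WT T1D and 57.6, 63.7 and 68.0 CPM in KO T1D, without overlap (log2 0.32 ± 0.07, edgeR adjusted p = 0.0644). Tfg, which organizes exit sites, did not overlap either (85.9 to 103 CPM against 105 to 120 CPM, log2 0.24). Among unfolded protein response genes, 11 of 22 were higher and 4 lower at this p, against 1 and 2 without the pair (medians 0.17 and 0.09). With all libraries the lower were Asns (log2 -0.73), Trib3 (-2.16), Chac1 (-0.73) and Ddit3 (-0.50), which respond to amino acid shortage, while the chaperone Hsp90b1 differed by 0.33.

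Dkk1 and Sost had the smallest p among the osteocyte genes. Of 12, 4 were higher at an unadjusted p under 0.05 with all libraries and 5 without A3905 and A3906, and the medians were 0.46 and 0.29. Dkk1 read 6.04, 9.53 and 14.8 CPM in WT T1D and 14.2, 17.7 and 21.9 CPM in KO T1D (log2 0.81 ± 0.18, edgeR adjusted p = 0.0644), with 5 KO T1D libraries above every WT T1D library. Sost, which encodes sclerostin, read 46.2, 107 and 151 CPM against 140, 164 and 222 CPM (log2 0.75 ± 0.23, edgeR adjusted p = 0.142), and differed by 0.96 without the pair. Among mice numbered A36 to A39 alone, Sost differed by 0.31 (edgeR adjusted p = 0.180). WT T1D A1787, A1764 and A1758 read 46.2, 54.3 and 96.2 CPM of Sost, and A3905, A3906 and A3909 read 118, 137 and 151 CPM. In nondiabetic bone Dkk1 differed by -0.21 and Sost by 0.20. Fgf23, the phosphate hormone, differed by -0.90 with all libraries and by 1.09 without the pair, in which it stood at 7.81 and 9.31 CPM against a WT T1D median of 1.28 CPM.

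All 16 osteoclast genes had a negative fitted difference (median -0.46), and 6 were lower in KO T1D at an unadjusted p under 0.05. Oscar, a costimulatory receptor, had the smallest p (log2 -0.77), and Ctsk, the collagen-cleaving cathepsin, differed by -0.51. Without A3905 and A3906 the median was 0.02, no osteoclast gene kept that p and Ctsk differed by 0.13. Ctsk stood at 760 and 808 CPM in the pair, against a KO T1D range of 225 to 470 CPM. Growth plate cartilage genes had none of 16 at that p in either direction. Their median was 0.10, and -0.31 without the pair. In nondiabetic bone it was -1.51, with a negative difference in 15 of the 16 and none called.

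Among blood lineages, red-cell genes were lower in KO T1D. Of 12 heme-synthesis genes 11 were lower at an unadjusted p under 0.05 (median -0.36), of 24 red-cell membrane and erythroid regulator genes 17 (median -0.32), and of 6 tested hemoglobin genes 4 (median -0.52). Alas2, the enzyme that starts heme synthesis in red-cell precursors, read 1169, 1454 and 2376 CPM in WT T1D and 864, 1062 and 1430 CPM in KO T1D (log2 -0.58 ± 0.18, edgeR adjusted p = 0.145). Ermap, an erythroid membrane protein, did not overlap, at 320 to 435 CPM against 244 to 298 CPM. Without the pair these counts were 0, 1 and 1, with medians of -0.21, -0.18 and -0.29, and in nondiabetic bone the medians were 0.08, 0.09 and 0.19. Mitosis genes (median -0.19, 6 of 20 lower) and replication licensing genes (-0.22, 9 of 17 lower) had counts of 0 and 1 without the pair.

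In the B-cell list, Dntt and Vpreb1 had the smallest p. Dntt, the polymerase that adds bases at antigen-receptor joints, read 2.49, 23.4 and 31.1 CPM in WT T1D and 45.2, 50.9 and 67.9 CPM in KO T1D (log2 1.60 ± 0.44, edgeR adjusted p = 0.119). Vpreb1, a chain of the surrogate light chain, read 0.113, 9.85 and 13.3 CPM against 15.1, 23.5 and 38.9 CPM (log2 1.71 ± 0.57). Neither overlapped, and they differed by 1.08 and 1.14 without the pair. In nondiabetic bone they differed by 0.66 and 0.57 (unadjusted p = 0.157 and 0.341 from edgeR). The B-cell list as a whole had 3 of 17 higher at an unadjusted p under 0.05, both with and without the pair. Its median was 0.37, and -0.07 without the pair. Among T-cell and NK-cell genes 5 of 17 were higher, and 4 without the pair, among the 5 being Lef1 (log2 1.01) and Cd4 (0.51).

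Interferon-stimulated genes, a list without Xaf1, had 19 of 27 higher and 1 lower at an unadjusted p under 0.05 (median 0.51). Gbp2, a guanylate-binding protein induced by interferon-gamma, read 9.95, 15.9 and 19.2 CPM in WT T1D and 18.4, 25.7 and 50.7 CPM in KO T1D (log2 0.93 ± 0.21, edgeR adjusted p = 0.0644), and Gbp3 differed by 0.58. Without the pair 8 were higher and the median was 0.24. In nondiabetic bone it was 0.16. Of 23 chemokine genes and receptors 7 were higher, and 4 without the pair. Ccl12 and Ccl8, attractants of monocytes that lie 3.60 and 3.62 Mb from Sarm1, were at low levels, from 0 to 0.556 CPM against 0.332 to 1.46 CPM for Ccl12 and from 0.611 to 1.58 CPM against 1.03 to 5.51 CPM for Ccl8.

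Among oxidative-stress genes, Hmox1 separated the groups. Of 19 glutathione, thioredoxin and NRF2 target genes, 2 were lower at an unadjusted p under 0.05, Hmox1 and Gclc (median -0.11), and 1 without the pair, a share near that of all genes. Hmox1, heme oxygenase 1, read 267, 293 and 370 CPM in WT T1D and 148, 198 and 234 CPM in KO T1D, without overlap (log2 -0.63 ± 0.14, edgeR adjusted p = 0.0644), and differed by -0.60 without the pair and by -0.05 in nondiabetic bone. Among catalase, superoxide dismutases, peroxidases and peroxiredoxins 5 of 15 were lower, among them Prdx2 (log2 -0.46) and Sod2 (-0.29), and 1 without the pair. On log2 (TPM + 1), where the median of all genes was 0.17, the medians of these lists were 0.07 and 0.03, and those of the mitosis, neutrophil, acute phase, macrophage, endothelium, marrow stromal niche and insulin and IGF lists also turned positive.

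Acute phase and neutrophil differences came with the pair. Serpina3n, a protease inhibitor of the acute phase, read 0.459, 2.85 and 23.7 CPM in WT T1D and 0.685, 1.08 and 1.68 CPM in KO T1D (log2 -2.90, edgeR adjusted p = 0.0703), and differed by -0.81 without the pair. Stfa2 and BC100530, stefin A genes of neutrophils whose near-identical copies can share reads, differed by -2.22 and -2.78, and by -0.08 and -0.56 without it. The neutrophil list had 5 of 23 lower and the acute phase list 4 of 14, and 0 each without the pair. Igf2, a growth factor, differed by log2 -1.67, and by -0.69 without WT T1D A1764, which stood at 102 CPM against 21.3 CPM in the next WT T1D library.

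Among lists closer to the function of SARM1, medians lay near 0. NAD metabolism genes had a median of 0.03, with 4 of 19 higher and 1 lower at an unadjusted p under 0.05 with and without the pair. Sarm1 itself was among the 4 both times, and the shares of all genes that were higher were 8.44% and 3.13%. Kmo, an enzyme of the kynurenine route to NAD, had the smallest p (log2 0.66). Nadk, which makes NADP from NAD, did not overlap, at 161 to 178 CPM against 178 to 206 CPM (log2 0.16). Toll-like receptors and adaptors had a median of 0.09 and 2 of 18 higher, Sarm1 and Tlr3, with and without the pair. Of 9 tested Schwann-cell and myelin genes 1 was lower, and 2 without the pair, where 3.33% of all genes were lower. The median was 0.02. The remaining lists had medians between -0.23 and 0.24: endothelium with 1 of 16 lower (Stab2, a scavenger receptor of sinusoids, log2 -0.56), marrow stromal niche with 4 of 12 lower, macrophage with 4 higher and 4 lower of 16, megakaryocyte and platelet with 0 of 14, insulin and IGF signaling with 5 of 19 lower, glucocorticoid and circadian with 3 higher and 3 lower of 25, and Wnt and BMP pathway with 11 higher and 4 lower of 41. Without A3905 and A3906 these counts were 2 lower for endothelium, 0 for marrow stromal niche, 1 higher and 2 lower for macrophage, 0 for megakaryocyte and platelet, 3 lower for insulin and IGF signaling, 1 lower for glucocorticoid and circadian, and 3 higher and 1 lower for Wnt and BMP pathway.

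**Figure D4:**
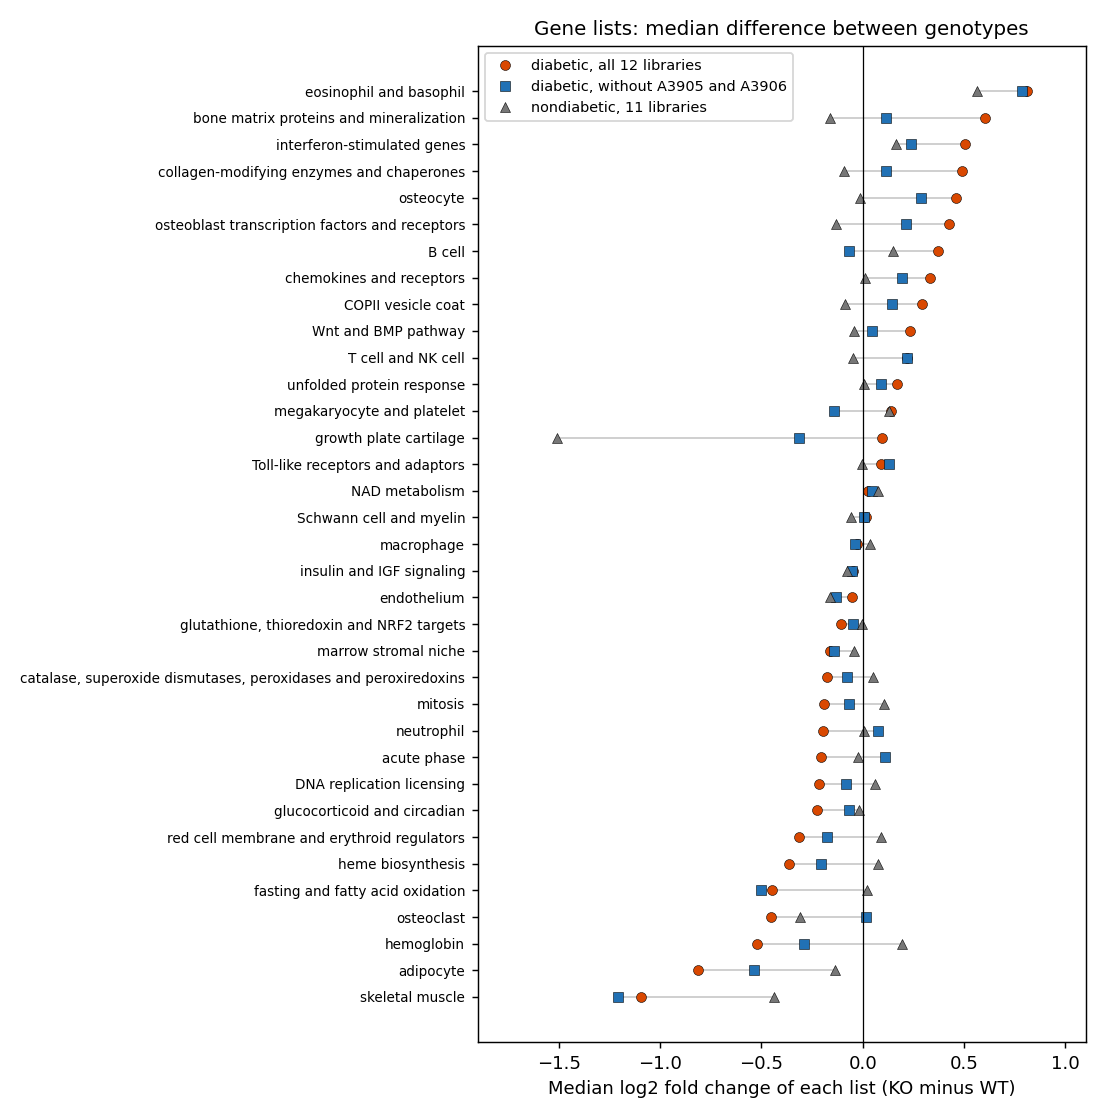
Median log2 difference (KO minus WT) of the tested genes in each of 35 lists: diabetic mice with all 12 libraries (circles), diabetic mice without A3905 and A3906 (squares) and nondiabetic mice (triangles). Eosinophil and fuel-use medians hardly move when the pair is left out (0.81 to 0.79 and -0.45 to -0.50), whereas bone matrix moves from 0.60 to 0.11 and osteoclast from -0.46 to 0.02.

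**Figure D5:**
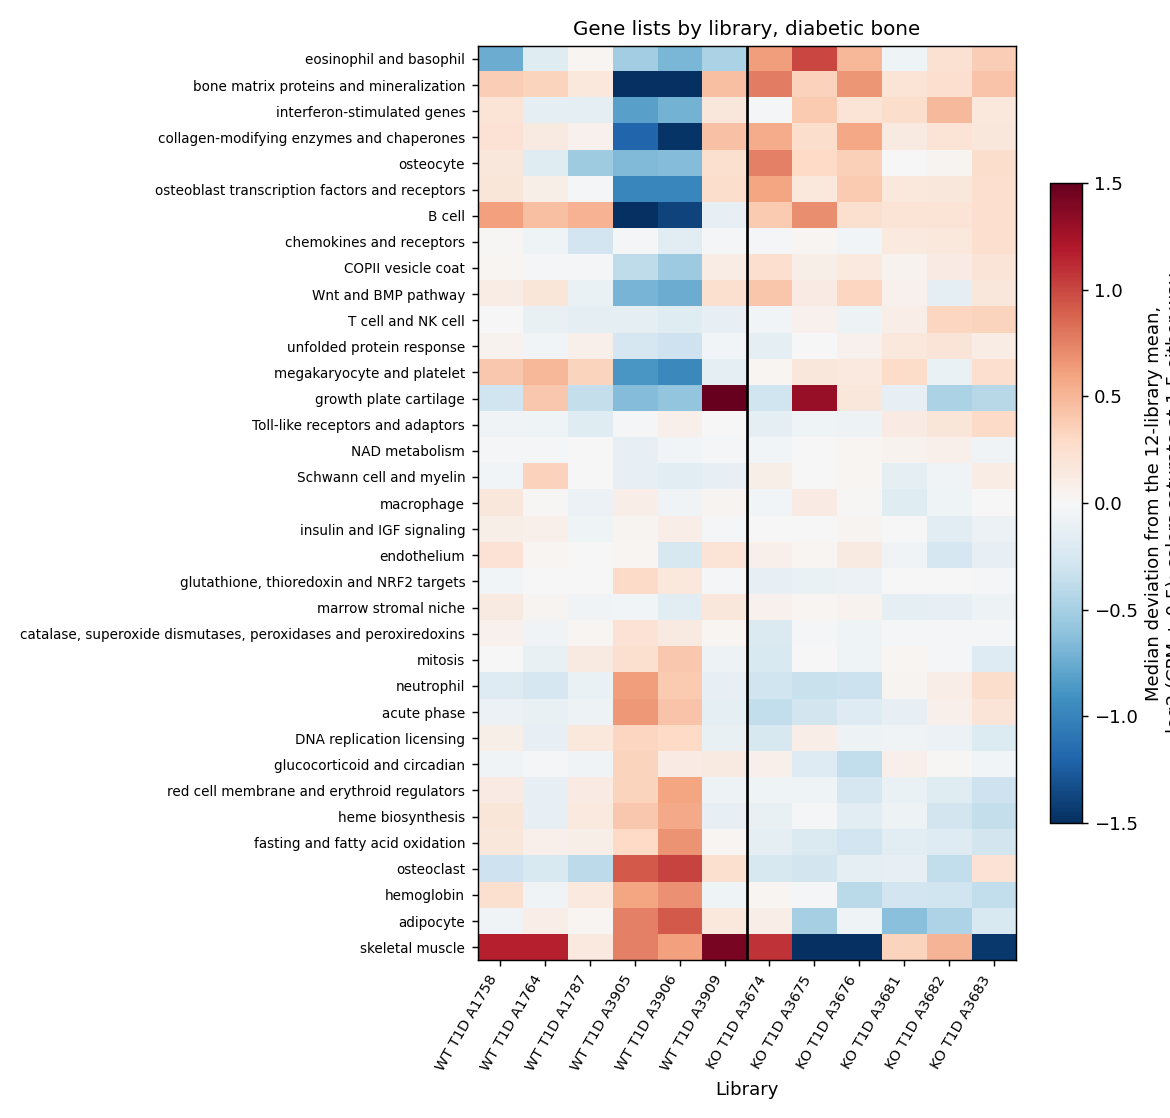
Median deviation of each list from the mean of the 12 diabetic libraries, on log2 (CPM + 0.5), by library; red is higher and blue lower, and colors saturate at 1.5. A3905 and A3906 carry the lowest bone matrix and B-cell and the highest osteoclast values, and muscle varies widely within both groups.

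Whether the genotype difference itself changed with diabetes was tested by the interaction of genotype and diabetes. No gene passed in edgeR (0 of 14364, lowest adjusted p = 0.479, with 1467 genes at an unadjusted p under 0.05). DESeq2 and limma-voom with quality weights also called 0, and limma on log2 (TPM + 1) called 2. For Cd36, Dkk1 and Hmox1 the unadjusted interaction p from edgeR was 0.000682, 0.000571 and 0.00828, with an adjusted p of 0.479 for each. Their larger differences in diabetic than in nondiabetic bone thus did not pass this test. For the fuel, osteoblast and red-cell lists the differences are values side by side, and the lists as such were not tested.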

How the data were processed

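Bone RNA of 23 female mice was read from poly(A)-selected, dUTP-stranded, paired-end libraries on the DNBSEQ platform, and 12 diabetic libraries were compared, grouped by their titles. The deposited expected counts per gene were made by the authors with RSEM after SOAPnuke filtering and alignment with HISAT and Bowtie2 to GRCm38.p6, and the deposited TPM values come from the same runs. Whether counting used strand is not given in the sources used here. Counts, whole numbers as deposited, were filtered (at least 10 counts in at least 5 libraries, all groups), scaled by TMM and tested in edgeR 4.0.16 (R 4.3.3) by glmQLFit and glmQLFTest on 4 group means over 23 libraries, with Benjamini-Hochberg adjustment over 14364 genes and a threshold of 0.05. SE was taken as the log2 difference over the square root of F. The low depth of Sarm1 was tested by exact permutation. P-values set a difference between groups against the spread between mice, which edgeR pools over the 4 groups. They do not separate genotype from number series in the diabetic groups. No within-group pair of libraries agreed within sampling noise (chi-square per gene 10.9 at the lowest).

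Members and gene lists (35, with 654 genes) were chosen with earlier results of these data known. Named genes are Sarm1, up to 12 called genes per direction with a mean of at least 1 CPM (filled to 5 by p), list members (up to 3 called, otherwise the 2 of smallest p), Runx2, Fgfr2, Pth1r and Col1a1, called neighbors of Sarm1 and genes called in both contrasts; other genes named were chosen after their values were seen. Symbols came from the TPM table and positions from RefSeq (14307 of 14364 genes). Alternatives used DESeq2 1.42.0, limma 3.58.1 and other filters, scalings and subsets. The edgeR step was tested on simulated data. Python 3.11.15 drew the figures. Results on some listed genes are not reported here.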

Additional observations from a re-analysis of the deposited data

Results flagged for a closer look

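Among 80 named genes in 160 groups of 6 diabetic libraries, 8 held a library far from the other 5 by Dixon's test at 95%. For independent, normally distributed values this would occur in about 1 of 20 groups. The genes were chosen in part by their p in these libraries and are not independent, so that rate does not say whether the 8 are more than noise. Of the 8, 5 were in KO T1D. In KO T1D, Spns3 stood at 32.9 CPM in A3675 against 23.6 CPM in the next, Sost at 222 CPM in A3674 against 170 CPM, Adgre1, a macrophage receptor, at 44.9 CPM in A3681 below the next at 53.8 CPM, and Gbp2 and Ccl8 at 50.7 and 5.51 CPM in A3682 against 26.7 and 2.32 CPM. In WT T1D, Stfa2 stood at 42.6 CPM in A3905 against 14.3 CPM, and Igf2 and Igfbp6 at 102 and 20.7 CPM in A1764 against 21.3 and 10.9 CPM. Without the library concerned, the log2 differences of Igf2 and Stfa2 went from -1.67 and -2.22 to -0.69 and -1.04, and those of Ccl8 from 1.14 to 0.70. Of these genes only Spns3 was called.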

How the results depend on the processing

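Against 9 genes higher and 4 lower in KO T1D, an adjusted p under 0.1 gave 46 and 66, DESeq2 87 and 152, relative log expression factors 3 and 2, at least 50 counts in 6 libraries 3 and 2, the diabetic libraries alone 3 and 1, robust edgeR 4 and 1, library totals 9 and 1, voom with quality weights 3 and 1, and no filter beyond 1 count 2 and 1. On log2 (TPM + 0.1) limma gave 1155 and 30, on log2 (TPM + 1) 1134 and 32, and after median centering (added after the data were seen) 28 and 32. Mice A36 to A39 alone, with 3 WT T1D libraries of which 2 are A3905 and A3906, gave 809 and 729. Leaving out that pair gave 3 and 1, all within 10 Mb of Sarm1, the third higher gene being Pitpnm3. Leaving out single libraries gave 2 to 45 higher and 1 to 50 lower. In nondiabetic bone, 1 gene lower became 2 on log2 (TPM + 1) and 3 after centering; the interaction went from 0 to 2 on log2 (TPM + 1). Where counts moved, the cause was not tested. Sarm1 reversed on centered TPM (limma, log2 -0.011), Spp1 without the pair (0.026) and Treml1 without the pair (-0.089); the other genes named by the rule kept their direction under every alternative. Of genes named after their values were seen, Fgf23 and Ctsk, among others, turned without the pair (1.09 and 0.13). Of 875 list medians under the alternatives, 823 moved by less than the spread between libraries. A3905 and A3906 widen that spread, which was 0.84 for bone matrix and 0.74 for B cells. Moves from 0.60 to 0.11 and from 0.37 to -0.07 without the pair thus fell below it, and the count does not show that medians are independent of the pair. No paired analysis was possible because the groups share no replicate numbers. Low counts limit Sarm1, Ccl12 and Vtn in WT T1D.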
